A study of Mus musculus with 8 samples.

Results

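The mRNAs of the cytosolic ribosomal proteins were compared between the hippocampus of mice given KU55933, a small molecule that blocks the kinase ATM, and of mice given vehicle. The members were the genes whose symbols name a protein of the large subunit, the small subunit or the stalk (Rpl, Rps, Rplp0 to Rplp2 and Rpsa), without same-named pseudogenes and without the ribosomal S6 kinases. They numbered 87 of 19558 genes, 52 of the large subunit and stalk and 35 of the small subunit, and 3 further genes were left out because a listed transcript was a processed pseudogene. All mice were wild type (genotype WT, strain C57BL/6 KP) at postnatal day 40 and were dosed through the nose under anesthesia. The treated group received KU55933 at 7.5 mg/kg and the controls 4% DMSO in saline, for which the labels give the same dosage. Each group held 4 libraries, which the design text counts as n = 4 and does not otherwise describe, so p-values measure the spread between these libraries. How long after dosing the tissue was taken is not stated in the labels.

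A ribosome joins a small subunit, which reads the mRNA, to a large subunit, which forms the peptide bonds, and each ribosomal protein is present once per ribosome except for the acidic stalk proteins. Their mRNAs are among the most abundant of any cell and are short, and most begin with a cytosine followed by a run of pyrimidines (the terminal oligopyrimidine or TOP motif), through which growth signalling controls their translation. ATM is known for signalling DNA double-strand breaks, and it also acts on growth signalling upstream of such mRNAs.

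The sequences show a feature with which the change of the members went in these data, their base composition. The first 90 coding bases of 3 members that fell (Rpl36, Rplp1, Rplp2) and of 3 that rose (Rps24, Rps25, Rpl39) before any correction for GC content are shown with G and C in capitals, from the GENCODE mouse release 21 transcripts.
Rpl36: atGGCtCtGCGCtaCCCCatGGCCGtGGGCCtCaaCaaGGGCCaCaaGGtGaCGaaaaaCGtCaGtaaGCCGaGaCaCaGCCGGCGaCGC
Rplp1: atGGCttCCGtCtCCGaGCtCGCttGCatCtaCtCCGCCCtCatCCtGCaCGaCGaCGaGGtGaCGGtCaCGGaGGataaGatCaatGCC
Rplp2: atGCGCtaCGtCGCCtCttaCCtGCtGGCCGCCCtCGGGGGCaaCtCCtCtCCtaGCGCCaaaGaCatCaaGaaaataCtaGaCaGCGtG
Rps24: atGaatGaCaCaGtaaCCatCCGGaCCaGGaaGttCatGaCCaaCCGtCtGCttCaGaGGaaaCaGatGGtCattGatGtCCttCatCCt
Rps25: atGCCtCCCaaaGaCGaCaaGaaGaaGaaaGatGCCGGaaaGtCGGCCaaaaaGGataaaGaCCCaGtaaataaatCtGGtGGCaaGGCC
Rpl39: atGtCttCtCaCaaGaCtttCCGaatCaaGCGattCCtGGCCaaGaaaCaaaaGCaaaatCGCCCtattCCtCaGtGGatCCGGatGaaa
G and C made up 62.2%, 58.9% and 57.8% of these bases in Rpl36, Rplp1 and Rplp2. The same measure was 46.7%, 46.7% and 44.4% in Rps24, Rps25 and Rpl39. These members were picked for display and do not stand for all. Over whole transcripts, members called lower spanned 46.8 to 60.8% GC and those called higher 45.7 to 48.7%.

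A second set shows why reads of some members cannot be placed with certainty. The coding start of Rps7 and the same stretch of its processed pseudogene Rps7-ps3 differ at the 2 bases in capitals.
Rps7: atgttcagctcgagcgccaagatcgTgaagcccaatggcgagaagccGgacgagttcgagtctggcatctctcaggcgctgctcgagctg
Rps7-ps3: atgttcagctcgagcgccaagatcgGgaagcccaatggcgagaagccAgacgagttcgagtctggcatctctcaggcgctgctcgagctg
Over its 582 bases Rps7-ps3 differed from Rps7 at 3. The first 90 bases of Rps13 and of its pseudogene Rps13-ps2 were the same.
Rps13: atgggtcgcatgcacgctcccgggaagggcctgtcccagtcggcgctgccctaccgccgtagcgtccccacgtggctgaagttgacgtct
Rps13-ps2: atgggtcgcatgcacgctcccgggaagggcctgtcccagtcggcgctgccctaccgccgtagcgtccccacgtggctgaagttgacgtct
All 453 bases of Rps13-ps2 matched Rps13, so that no read inside it differs between the 2 genes.

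The third set shows the annotated start of 4 members, as 30-base windows of the RefSeq promoter table (GRCm38.p6) that begin 10 bases before the start. Capitals mark the run of pyrimidines that opens with the first transcribed base. The windows are chr7:141447641-141447670 (+ strand) for Rplp2, chr17:27635225-27635254 (- strand) for Rps10, chr14:18270967-18270996 (- strand) for Rpl15 and chr17:33824543-33824572 (- strand) for Rps28.
Rplp2: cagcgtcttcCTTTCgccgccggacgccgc
Rps10: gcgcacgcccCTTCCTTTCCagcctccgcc
Rpl15: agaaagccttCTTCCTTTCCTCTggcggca
Rps28: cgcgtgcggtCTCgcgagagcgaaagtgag
Promoters of 66 of the 87 members were matched by symbol. On the transcribed strand a C at the annotated start followed by at least 4 bases that were all C or T was found in 14 of 66 (21.2%), against 3.0% of 27025 genes in the table. A C followed by 6 such bases within 50 bases of the start was found in 86.4% against 44.5%. The letters CTTTC, which can overlap that run, stood within the same 50 bases in 53.0% against 14.6%. Among members called lower in KU55933 these 3 shares were 19.0%, 85.7% and 52.4% (21 promoters), and among members called higher 28.6%, 85.7% and 57.1% (7 promoters). The start-site motif was thus carried by both kinds, at shares that differ by few genes.

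The libraries held 40586998 to 46630341 estimated counts in the vehicle group and 34190440 to 37499003 in the KU55933 group. Levels are given as normalised CPM, that is, counts scaled to the TMM-adjusted size of each library. Markers of excitatory hippocampal neurons (7 of 7 detected) summed to 6530 to 7350 CPM in vehicle and 5280 to 6140 in KU55933, with 4 called lower and 1 higher. The 12 choroid plexus markers, all detected, summed to 173 to 339 CPM in vehicle, 1920 and 1800 in KU55933 replicates 1 and 2, and 269 and 228 in replicates 3 and 4, with 1 called higher. The sums of the other 9 marker lists overlapped between the groups, although 2 of 4 subcortical neuron markers were called higher (65.9 to 73.0 CPM in sum in vehicle, 60.0 to 118 in KU55933). With the GC and length offset given below, edgeR called 0 of the 59 markers of all lists, and 19 had an unadjusted p under 0.05. No share over all genes at that unadjusted threshold is given here. At an adjusted p under 0.05 edgeR called 14.6% of all tested genes lower and 6.92% higher, and 1.31% and 0.692% with the offset. Mitochondrially encoded genes took 4.36 to 4.77% of counts in vehicle and 5.08 to 5.48% in KU55933. The part of these differences in the results below was not tested, beyond the fits without KU55933 replicates 1 and 2. In bulk tissue, fewer cells of a type and less RNA per cell cannot be told apart.

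Of the 87 members, 84 passed the filter on low counts. Rpl3l (2 to 11 counts per library), Rpl39l (0 to 3) and Rps23rg1 (0 to 4) did not. Per kilobase of transcript the median vehicle level was 166 CPM, from 13.9 for Rpl12 to 616 for Rplp1, and Rplp1, Rps29 (444) and Rps15 (400) were the most abundant. Members together took 1.14% ± 0.0452 (SD, n = 4) of counts in vehicle, and 1.05% ± 0.0925 in KU55933. KU55933 replicate 2 was the lowest, at 0.924%, while the other 3 treated libraries lay between 1.04 and 1.14% and the vehicle libraries between 1.09 and 1.20%. The difference was -0.0961 percentage points with that library and -0.0547 without it. KU55933 replicate 2 held the lowest level of 50 of the 84 members and KU55933 replicate 1 the highest of 27. The treated libraries thus differed among themselves in the total, but all 4 had levels that lay further apart between members. The SD over members of log2 CPM per kilobase was 1.10 to 1.17 in the vehicle libraries and 1.20 to 1.28 in the KU55933 libraries.

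Without correction for GC content, 30 of 84 members fell and 7 rose (edgeR quasi-likelihood F test, Benjamini-Hochberg adjusted p under 0.05 over 15481 genes). These are 35.7% and 8.33% of the members tested, where 14.6% and 6.92% of all tested genes were called lower and higher. The remaining 47 did not pass and had log2 changes of -0.37 to 0.27. The median log2 change was -0.15 over members and 0.01 over all genes. In the large subunit and stalk 16 of 50 fell and 3 rose (median -0.12), and in the small subunit 14 of 34 fell and 4 rose (median -0.23). The levels of the groups did not overlap for 30 members lower in KU55933 and 17 higher, against 15.9% and 10.7% of all genes. The median of the members was -0.05 without KU55933 replicate 2, with 23 called lower and 6 higher. Without vehicle replicates 3 and 4 in turn 18 and 19 were called lower. The number higher was 1, 1 and 2 without vehicle replicates 2, 3 and 4, and 3 without KU55933 replicate 1 or 3. Leaving out KU55933 replicates 1 and 2, which carried the choroid plexus markers, left 17 lower and 2 higher with a median of -0.02. The numbers of all tested genes called lower and higher also fell in that fit. They changed as well when 1 library was left out, as the closing section gives, so these losses are not particular to the members.

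Over the 84 members the log2 change fell with the GC content of the transcripts (Spearman's rho -0.71), as it did over 15470 genes (-0.71), while its rho with transcript length over members was 0.05. The median length was 755 bases over members and 2888 over tested genes, so a rho within members cannot show a difference by length from other genes. Nor were the other genes in the GC ranges below matched for length. Genes within these libraries are not independent, and the values describe these libraries. Members under 48% GC had a median log2 change of 0.21, with 6 of 15 higher and 1 lower, where the other genes in that range had a median of 0.19 and 16.1% higher. Those of 48 to 52% had a median of 0.12 with 1 of 31 higher and 5 lower, beside a median of 0.05 with 2.89% higher and 1.94% lower among 3252 other genes. At 52 to 56% the median was -0.39 and 12 of 24 fell, beside a median of -0.14 and 12.6% called lower among 3349 other genes. From 56% up the median was -0.52 and 12 of 14 fell, beside -0.50 and 59.3% of 2924 other genes. The members called higher spanned 45.7 to 48.7% GC and those called lower 46.8 to 60.8%. The members kept a rho of -0.36 with GC content under the offset described next.

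**Figure D1:**
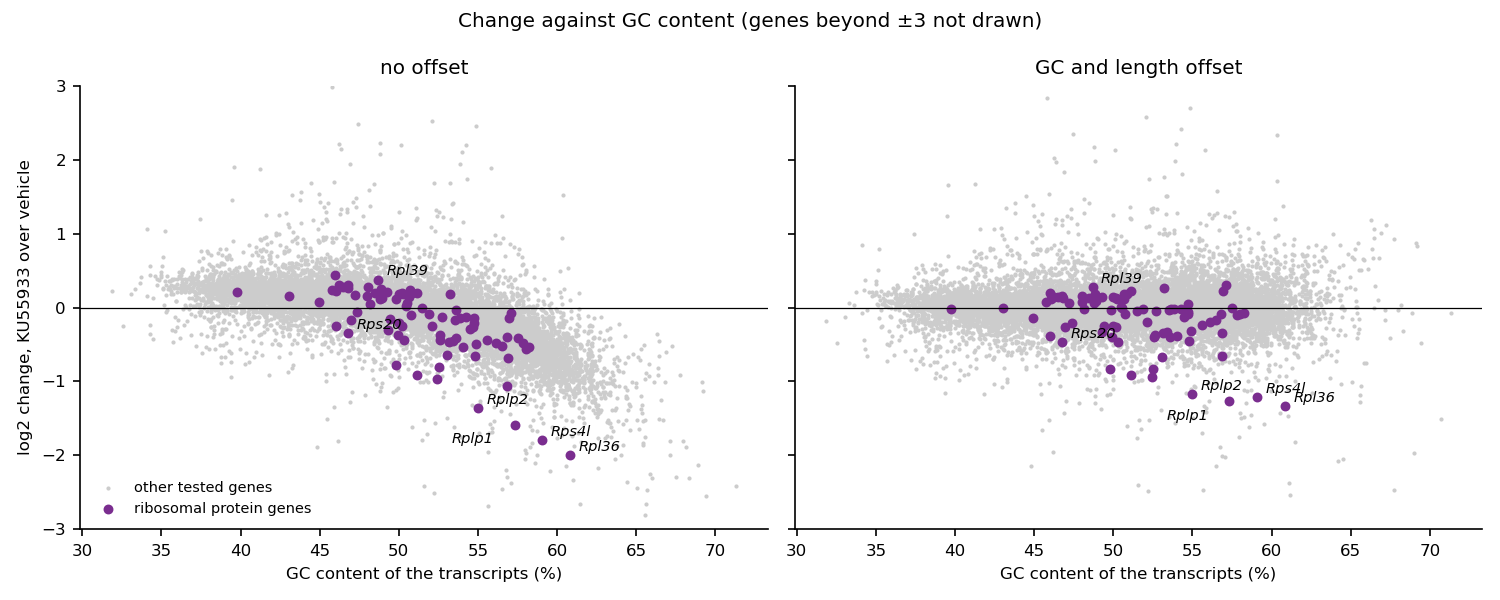
Log2 change of KU55933 over vehicle (y axis) against the GC content of each gene's transcripts in percent (x axis), without an offset (left) and with a GC and length offset per library (right), with ribosomal protein genes in purple over the other tested genes in grey and 25 genes beyond 3 log2 units without the offset not drawn. The slope of the grey points on the left is flattened on the right, while the members keep a rho of -0.36 with GC content there, and Rpl36, Rps4l, Rplp1 and Rplp2 still lie below -1.1.

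When each library's trend with GC content and length was taken out by an offset, 12 members were lower and 0 higher by the same edgeR test, against 1.31% and 0.692% of 15470 genes. The 12 are 14.3% of the members tested. At an unadjusted p under 0.05, 29 members were lower and 10 higher, and no other tool was run with the offset. The share of all genes at that unadjusted threshold is not given here, so these 2 counts cannot be set against it. The median was -0.05, against 0.01 over all genes. The 12 were Rpl36, Rps4l, Rplp1, Rplp2, Rpl27, Rps13, Rps21, Rps26, Rps20, Rpl10a, Rps28 and Rps16, and each was also called lower without the offset. Of these, 9 kept the call in every fit that left out 1 library. Rps28 lost it without any single library other than KU55933 replicate 1, Rps16 without vehicle replicate 2, 3 or 4 or KU55933 replicate 2 or 4, and Rps20 without vehicle replicate 3 (adjusted p up to 0.137, 0.0935 and 0.0537). The other 18 members that fell without the offset had offset log2 changes of -0.67 to 0.00. Leaving out KU55933 replicates 1 and 2 under the offset left 8 called lower. The share of all genes called in that fit is not given here, so the loss cannot be read as particular to the members.

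**Figure D2:**
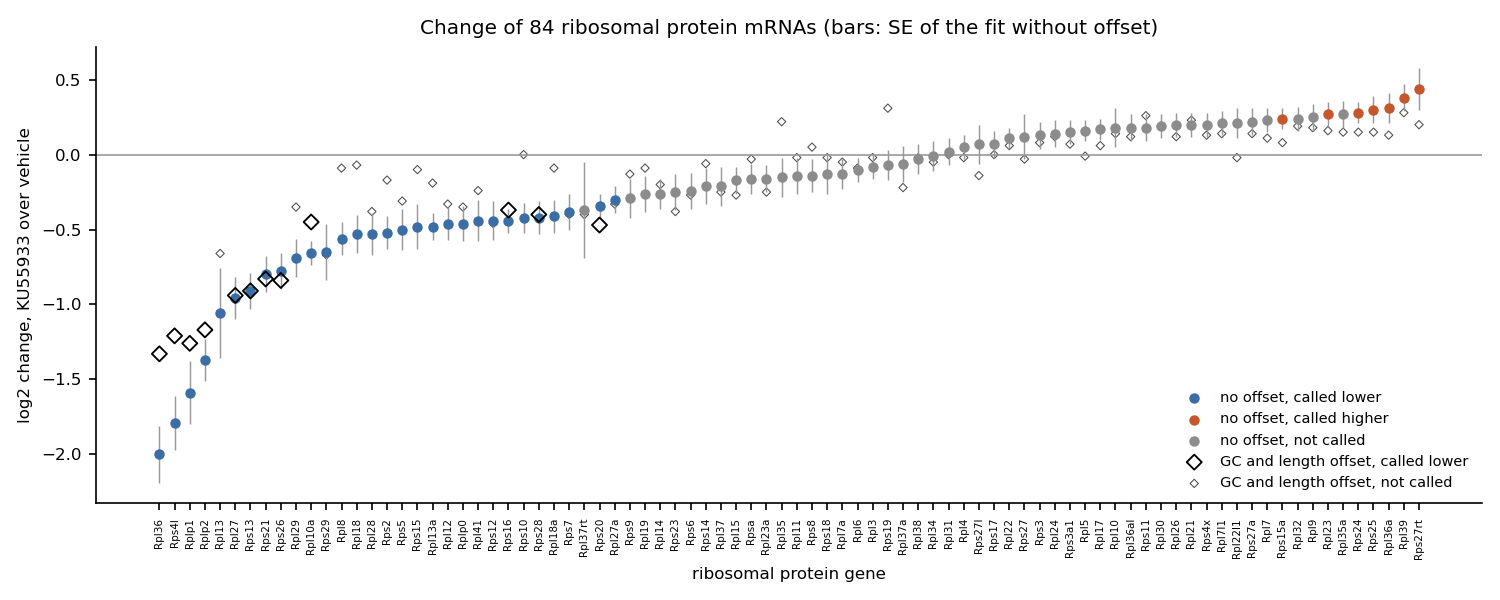
Log2 change of KU55933 over vehicle (y axis) for the 84 tested members in order (x axis), as filled circles with SE bars without an offset and as open diamonds with the GC and length offset, large where called lower. The 30 blue circles lie at -0.30 or below and the 7 orange ones at 0.24 or above, while 12 large diamonds remain at the left.

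The stalk proteins changed unequally. Rplp0 is the base on which the stalk stands, and pairs of the acidic proteins Rplp1 and Rplp2 bind to it and recruit the translation factors that hydrolyse GTP. Rplp1 (ENSMUSG00000007892) was at 289, 308, 313 and 320 CPM in vehicle replicates 1 to 4 and at 92.1, 61.4, 128 and 128 in KU55933 replicates 1 to 4. All treated libraries lay far under all controls, a log2 change of -1.59 ± 0.21 (SE), or 3.00-fold lower, with an edgeR adjusted p of 0.00148. With the offset the log2 change was -1.26 ± 0.13 (adjusted p = 0.00257). Rplp2 (ENSMUSG00000025508) stood at 81.1, 72.7, 96.7 and 90.7 CPM in vehicle and at 36.7, 25.0, 38.5 and 32.2 in KU55933. It too fell without overlap, by 1.37 ± 0.14 on the log2 scale (adjusted p = 0.000504) and by 1.17 ± 0.12 with the offset (0.00151). Rplp0 (ENSMUSG00000067274) had 181, 213, 177 and 190 CPM in vehicle and 137, 107, 148 and 161 in KU55933, a log2 change of -0.46 ± 0.12 (adjusted p = 0.0209, or 0.065 without vehicle replicate 2). The groups did not overlap here either, but with the offset Rplp0 was not called (-0.35 ± 0.10, adjusted p = 0.112). The ratio of Rplp1 to Rplp0 CPM was 1.62 ± 0.136 in vehicle (SD, n = 4; 1.45 to 1.76) and 0.727 ± 0.130 in KU55933 (0.576 to 0.869). That of Rplp2 to Rplp0 was 0.453 ± 0.0851 and 0.240 ± 0.0306. Both ratios used levels not corrected for GC content, which was 57.3% for Rplp1, 55.0% for Rplp2 and 53.1% for Rplp0. Both separated the groups without overlap, so in these uncorrected levels the acidic pair and its base were not in the same proportion. These ratios carry no test.

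Rpl36, a large subunit protein, showed the largest log2 change of any member. Rpl36 (ENSMUSG00000057863) was at 48.1, 46.9, 59.2 and 54.1 CPM in vehicle and at 13.5, 7.89, 16.1 and 14.4 in KU55933. The groups were far apart, a log2 change of -2.00 ± 0.19 or 4.01-fold lower (edgeR adjusted p = 0.000504), and with the offset -1.33 ± 0.11 (0.000886). Its transcripts had the highest GC content of the members, 60.8%. Rps21, a small protein of the small subunit, was at 98.5, 98.2, 99.1 and 90.3 CPM in vehicle and at 64.8, 42.3, 61.6 and 53.2 in KU55933. Its levels fell without overlap (log2 change -0.80 ± 0.12, adjusted p = 0.00145), and the offset left the value at -0.83 ± 0.11 (0.00468). Rps26, which lines the channel through which mRNA leaves the small subunit, was at 58.4, 64.4, 63.8 and 70.6 CPM in vehicle and at 36.0, 28.4, 41.8 and 43.4 in KU55933. No treated library reached a control (-0.78 ± 0.12, adjusted p = 0.00206, and -0.84 ± 0.10 with the offset, 0.00392). Rps20, of the head of the small subunit, was at 71.2, 71.2, 72.7 and 69.6 CPM in vehicle and at 62.3, 49.9, 55.9 and 56.5 in KU55933. It was lower in every treated library (-0.34 ± 0.08, adjusted p = 0.011, and -0.47 ± 0.07 with the offset, 0.013). Its transcripts held 46.8% GC as a count-weighted mean. Their weighted length was 2510 bases, beside a median of 755 over members, so that mean need not describe the short coding mRNA. With protein-coding transcripts alone Rps20 had -0.65 (edgeR adjusted p = 0.000682). Rps28, a neighbour of Rps26 at the mRNA exit, went from 66.9 ± 1.30 CPM to 50.2 ± 8.67 (SD, n = 4 each), a log2 change of -0.42 ± 0.11 (adjusted p = 0.0278), and -0.40 ± 0.09 with the offset (0.0475). Without the offset this call ended when vehicle replicate 2, 3 or 4 was left out, with an adjusted p of up to 0.0695. Rps26, Rps20 and Rps28 are described because they were called under the offset, a choice made after their values were seen. Rps7, Rpl28, Rps10, Rpl18 and Rpsa below were also picked after their values were seen, but were not called under the offset.

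**Figure D3:**
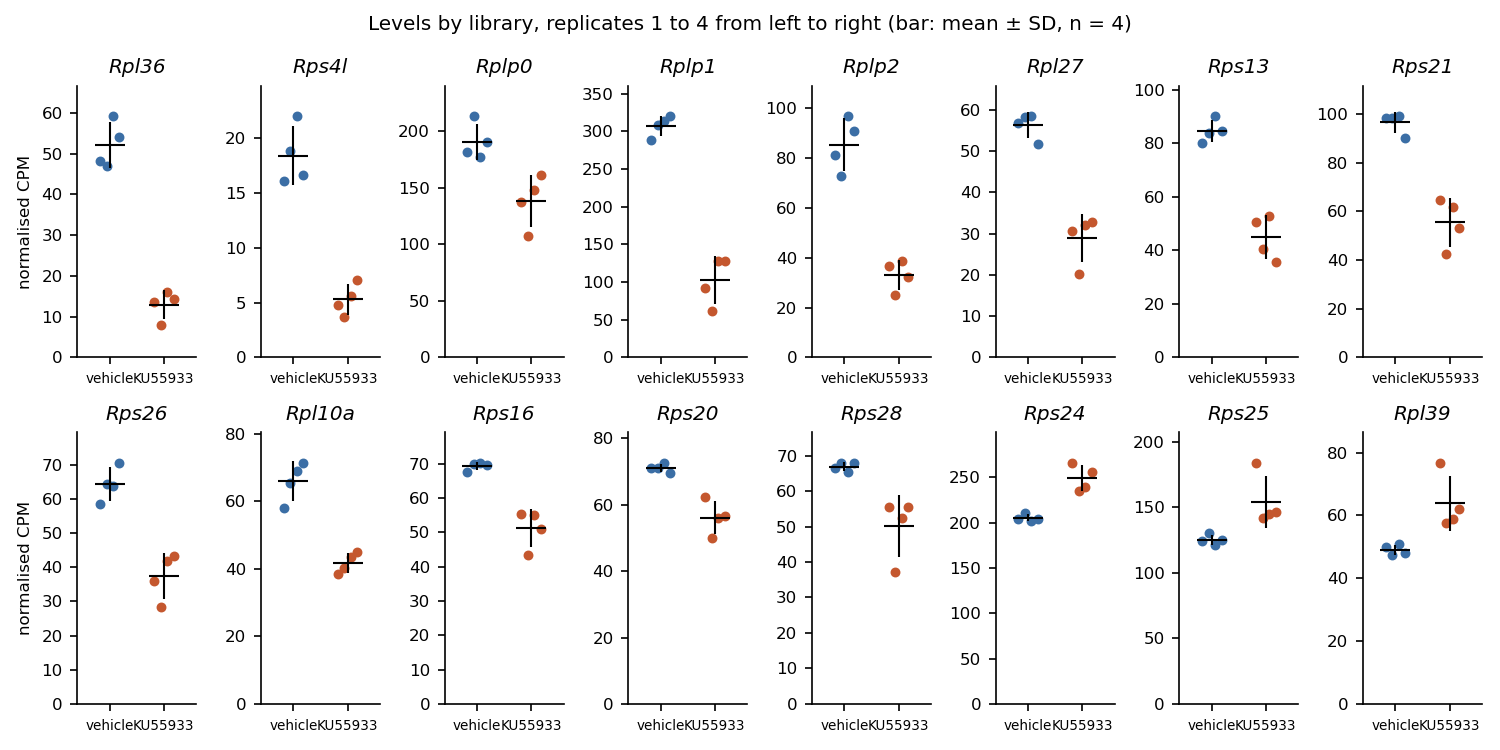
Normalised CPM (y axis, from 0) of 16 members in each library, vehicle in blue and KU55933 in orange, replicates 1 to 4 from left to right, with mean and SD (n = 4). In the 12 members called lower with the offset, and in Rplp0, no orange point reaches a blue one, and in Rps24, Rps25 and Rpl39 every orange point lies above the blue.

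Rpl13, a large subunit protein, was at 89.4, 97.5, 209 and 215 CPM in vehicle and at 82.6, 68.6, 79.5 and 62.9 in KU55933. Vehicle replicates 3 and 4 were well above replicates 1 and 2, which lay just above the treated libraries. Its log2 change of -1.06 ± 0.30 (edgeR adjusted p = 0.0367) was not called with the offset (-0.66 ± 0.29, 0.312) or after leaving out any library other than vehicle replicate 1 or 2 (adjusted p up to 0.106). The abundant Rps29 and Rps15 had log2 changes of -0.65 ± 0.19 and -0.48 ± 0.15 (adjusted p = 0.0384 and 0.0457). Rps29, a zinc-binding protein of the small subunit, ranged from 168 to 178 CPM in vehicle and from 69.0 to 148 in KU55933. Rps15, of the head of the small subunit, ranged from 186 to 223 and from 103 to 186. With the offset Rps29 had -0.67 ± 0.15 and Rps15 had -0.10 ± 0.10, and neither was called (adjusted p = 0.0531 and 0.661). Their calls ended in 6 and 7 of the 8 fits that left out 1 library. For Rps29 the exceptions were KU55933 replicates 2 and 4, and for Rps15 KU55933 replicate 4 (adjusted p up to 0.0916 and 0.121).

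The 7 members that rose without the offset did so by less. Rps27rt, a copy of Rps27, had 66.8, 74.9, 56.9 and 66.5 CPM in vehicle and 119, 77.5, 85.1 and 79.0 in KU55933 (log2 change 0.44 ± 0.14, edgeR adjusted p = 0.0461). KU55933 replicate 1 was the highest and replicate 2 only just above the controls. Rpl39, a small protein at the exit tunnel of the nascent chain, had 49.8, 47.5, 50.9 and 48.1 CPM in vehicle and 76.8, 57.5, 58.9 and 62.1 in KU55933 (0.38 ± 0.09, adjusted p = 0.0185). Every treated library lay above the controls. Rps24 went from 205 ± 4.08 to 249 ± 14.9 CPM (0.28 ± 0.07, adjusted p = 0.0151) and Rps25, known for its part in internal initiation, from 125 ± 3.80 to 154 ± 19.8 (0.30 ± 0.09, 0.0352). Rpl36a (0.31 ± 0.10), Rpl23 (0.27 ± 0.08), known to bind Mdm2, and Rps15a (0.24 ± 0.07) also rose, with adjusted p of 0.0472, 0.0453 and 0.0369. None of the 7 was called with the offset, where their log2 changes were 0.08 to 0.28 and adjusted p 0.124 to 0.546. Each also lost the call when a library was left out. Rps24 lost it without vehicle replicate 3 (0.0561), Rpl39 without vehicle replicate 2 (0.0562) and Rps25 without vehicle replicate 2, 3 or 4 (up to 0.102). Rpl36a and Rps27rt lost it without any library other than KU55933 replicate 4 (up to 0.128 and 0.126). Rps15a lost it without any other than vehicle replicate 1 and KU55933 replicate 4, and Rpl23 without any other than vehicle replicate 1 and KU55933 replicate 2 (up to 0.107 and 0.125).

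Members with a paralog in the list could be set side by side. Rps4l (ENSMUSG00000063171) resembles Rps4x, a small subunit protein, with 79.7% identity over the aligned bases, and is listed with a single processed transcript of 59.1% GC. Rps4l was at 16.1, 18.8, 22.0 and 16.6 CPM in vehicle and at 4.77, 3.72, 5.61 and 7.08 in KU55933. It fell without overlap by 1.79 ± 0.18 on the log2 scale (edgeR adjusted p = 0.000504), and by 1.21 ± 0.12 with the offset (0.00151). Rps4x ranged from 208 to 229 CPM in vehicle and from 235 to 284 in KU55933 (0.20 ± 0.08, adjusted p = 0.0936, not called). Rps4x transcripts held 48.5% GC, and with the offset Rps4x had 0.13 (edgeR adjusted p = 0.371). The ratio of Rps4l to Rps4x CPM was 0.0844 ± 0.0149 in vehicle and 0.0213 ± 0.00629 in KU55933. This ratio was not corrected for GC content, in which the 2 genes differ, and carries no test. Of the 913 windows of 31 bases in Rps4l, 8 occurred in Rps4x, so most stretches of that length tell it apart from its paralog.

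In the other pairs only Rpl36a and Rps27rt, given above, were called. Rpl22, an RNA-binding protein, and its paralog Rpl22l1 had log2 changes of 0.11 ± 0.07 and 0.21 ± 0.10 (edgeR adjusted p = 0.258 and 0.138), and the value for Rpl22l1 turned to -0.02 with the offset. Rpl7 and Rpl7l1, the latter a protein of ribosome assembly, had 0.23 ± 0.08 and 0.21 ± 0.08 (0.0661 and 0.0863). Rpl36al, a paralog of Rpl36a, had 0.18 ± 0.09 (0.168). Rps27 had 41.2, 25.2, 41.6 and 30.1 CPM in vehicle and 35.9, 35.1, 37.5 and 41.3 in KU55933, and its groups overlapped (0.12 ± 0.15, 0.603, and -0.03 with the offset). Rps27l had 0.07 ± 0.13 (0.717), and -0.14 with the offset. Rps27rt matched Rps27 over 341 of 341 aligned bases, and the sum of both was 101 ± 5.01 CPM in vehicle (96.6 to 108) and 127 ± 18.5 in KU55933 (113 to 155). The counts of Rps27 and Rps27rt are therefore uncertain singly.

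Several members that were called share sequence with a named processed pseudogene, whose count can trade with theirs. Rps13, of the small subunit, had 80.0, 83.8, 90.2 and 84.6 CPM in vehicle and 50.6, 40.6, 52.8 and 35.6 in KU55933 (log2 change -0.91 ± 0.12, edgeR adjusted p = 0.000773). Rps13-ps2 was listed at 0 in all 4 vehicle libraries and at 20.7, 16.2, 10.5 and 19.4 CPM in KU55933. Against a floor of 3 counts per library this is at least 233-fold higher, and it stands in a copy that cannot be told from the gene by sequence. With all same-named pseudogenes added, Rps13 had 83.2, 84.3, 90.1 and 87.2 CPM in vehicle and 71.6, 58.4, 64.5 and 55.2 in KU55933. The groups still did not overlap and the call held with a smaller log2 change, -0.47 ± 0.09 (adjusted p = 0.00446), and with the offset -0.46 (0.026). Rpl27, of the large subunit, had 56.9, 58.3, 58.5 and 51.8 CPM in vehicle and 30.6, 20.2, 32.0 and 32.8 in KU55933 (-0.96 ± 0.14, adjusted p = 0.00125). With its pseudogenes added the log2 change was -0.35 ± 0.10 (0.0301), and -0.30 with the offset, where the call was lost (0.0815). Rpl10a, the protein of the L1 stalk through which used tRNA leaves, had 58.2, 65.5, 69.1 and 71.5 CPM in vehicle and 38.5, 40.4, 43.6 and 44.9 in KU55933 (-0.66 ± 0.08, adjusted p = 0.000769). Adding its pseudogenes brought this to -0.30 ± 0.09 (0.0294), and to -0.10 with the offset (0.425). Rps7, shown above with its near-identical copy, went from -0.38 ± 0.12 (0.048) to -0.15 ± 0.08 (0.186) when its same-named pseudogenes were added. The Rps7 call also ended without any single library other than KU55933 replicate 4 (adjusted p up to 0.115). Rps7-ps3 alone was at 1.88 to 2.73 CPM in vehicle and at 32.5, 33.5, 19.1 and 11.8 in KU55933. Rpl28 went from -0.53 ± 0.14 (0.0238) to -0.32 ± 0.11 (0.0649), and lost its call without vehicle replicate 2 or KU55933 replicate 1 (adjusted p up to 0.0711).

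Among 131 pseudogenes named after 46 of the members, 53 were tested, and 8 were higher and 2 lower, where 6.92% and 14.6% of all genes were. Same-named pseudogenes together took 0.0533% ± 0.0031 of all counts in vehicle and 0.0612% ± 0.00309 in KU55933. With their counts added to the members, 28 members were lower and 9 higher, against 14.9% and 7.24% of all genes. With the offset as well, 9 were lower and 0 higher (1.23% and 0.701% of all genes), with 12 higher at an unadjusted p under 0.05 in edgeR. For the unadjusted threshold no share over all genes is given here. Of the 12 members lower with the offset alone, 3 were no longer called. Rpl27 went from -0.94 to -0.30 and Rpl10a from -0.45 to -0.10, while Rps28 had -0.40 before and -0.36 after (edgeR adjusted p = 0.0475 and 0.0618). Rpl36, Rplp1, Rplp2, Rps4l, Rps21, Rps26, Rps20, Rps16 and Rps13 remained. Only pseudogenes that carry a member's symbol were added, so copies under other names were not covered. For Rps4l and Rps20 the offset log2 change was -1.21 and -0.47 both before and after, so the addition could tell little about them. Without the offset Rpl36, Rplp1 and Rplp2 hardly moved either (-2.00 to -1.99, -1.59 to -1.58 and -1.37 to -1.36). Nor did Rps21 (-0.80 both times) and Rps26 (-0.78 to -0.77), so the addition could tell little about these as well.

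**Figure D4:**
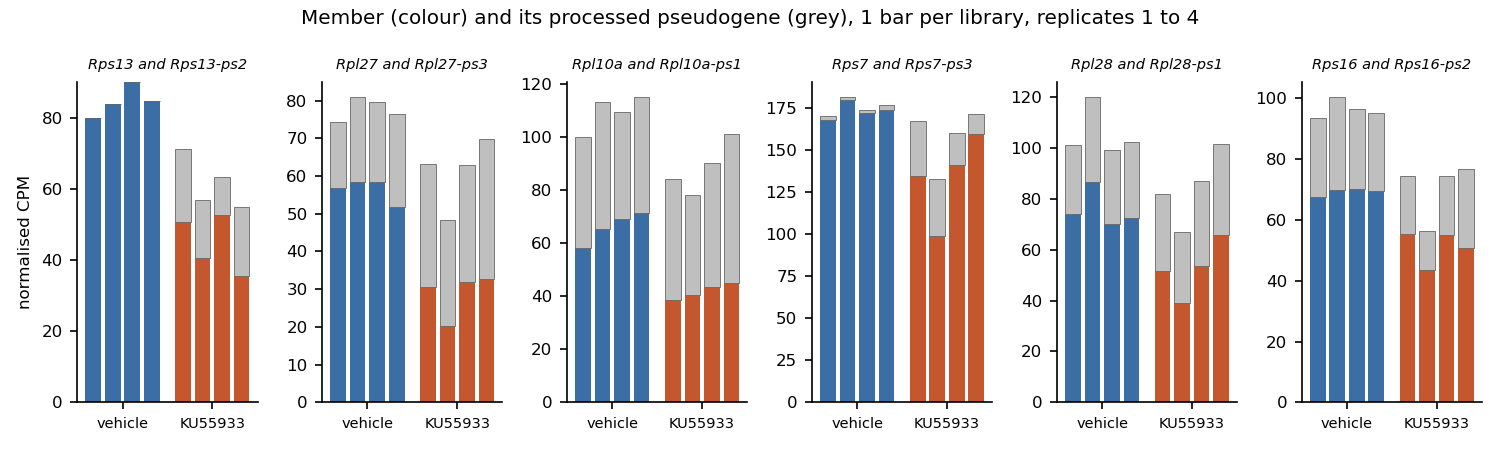
Normalised CPM (y axis, from 0) of 6 members in colour with 1 processed pseudogene each stacked in grey, 1 bar per library, vehicle in blue and KU55933 in orange, replicates 1 to 4. Grey is missing from the Rps13 bars of the vehicle libraries and stands at 10.5 to 20.7 CPM in those of KU55933.

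The table lists 479 transcripts of the members, of which 221 are protein coding, 170 retain an intron, 63 are processed transcripts and 24 are annotated for nonsense-mediated decay. Of 396 tested, 41 were lower and 6 higher, from 33 genes, where 5.70% and 1.06% of all 45343 tested transcripts were called. With a GC and length offset per transcript 16 were lower and 6 higher (1.01% and 1.05% of all). Without the offset the count lower fell to 20 and 24 without vehicle replicates 3 and 4, and to 22 and 26 without KU55933 replicates 1 and 2. The shares of all transcripts called in these fits are not given here. Transcripts that are not protein coding took 7.53% ± 0.395 of member counts in vehicle and 8.12% ± 0.791 in KU55933. KU55933 replicate 1, at 7.11%, was no higher than the lowest vehicle library, and without Rpsa the shares were 5.99% and 6.05%. By biotype, with Rpsa, the shares moved both ways. Processed transcripts went from 1.77% ± 0.165 to 1.38% ± 0.115 and decay transcripts from 2.77% ± 0.0762 to 3.00% ± 0.0972, both without overlap. Intron-retaining transcripts went from 2.95% ± 0.261 to 3.68% ± 0.664, with overlap. These shares carry no test.

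Single genes moved more between their own transcripts. Rps10, of the small subunit, was called lower as a gene (102 ± 7.07 to 76.4 ± 9.50 CPM, log2 change -0.42 ± 0.10, edgeR adjusted p = 0.0129) but had 0.00 with the offset (0.999). Its coding transcript ENSMUST00000178774 was at 19.8, 25.0, 35.1 and 30.6 CPM in vehicle and at 0 in all 4 KU55933 libraries, at least 331-fold lower against a floor of 3 counts per library (transcript test, adjusted p = 0.00103). Its coding transcript ENSMUST00000025052 was at 21.5 to 32.4 CPM in vehicle and 33.6 to 50.6 in KU55933 and was not called (adjusted p = 0.142). A further coding transcript, ENSMUST00000114882, had means of 41.7 and 32.7 CPM and was not called either (0.122).

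Rps16, whose tail reaches the tRNA in the small subunit, had 67.7, 70.0, 70.3 and 69.5 CPM in vehicle and 55.4, 43.5, 55.0 and 50.9 in KU55933 (-0.44 ± 0.08, edgeR adjusted p = 0.00513, and -0.37 with the offset, 0.0274). Its protein-coding transcript ENSMUST00000082134 was at 37.5, 38.1, 38.2 and 36.1 CPM in vehicle and at 11.7, 4.82, 11.6 and 9.62 in KU55933 (-1.99 ± 0.26, transcript adjusted p = 0.00532). The intron-retaining ENSMUST00000155805 moved the other way, from 11.5, 15.8, 12.2 and 14.8 CPM to 39.8, 33.8, 33.9 and 29.9 (1.34 ± 0.14, 0.00268). A second intron-retaining transcript, ENSMUST00000152918, fell by 1.46 ± 0.31 on the log2 scale (0.0267), so the intron-retaining transcripts of Rps16 did not move one way. The call of this last transcript ended without any library other than KU55933 replicate 3 or 4.

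Rpl13a, a large subunit protein known also for silencing inflammatory mRNAs after its release, had 245 ± 6.45 CPM in vehicle and 176 ± 21.3 in KU55933 (-0.48 ± 0.09, edgeR adjusted p = 0.00476, and not called with the offset, 0.222). Its intron-retaining ENSMUST00000210792 rose from 10.1, 8.69, 6.47 and 16.6 CPM to 54.3, 50.7, 46.2 and 41.5 (2.20 ± 0.27, 0.0048). Its processed transcript ENSMUST00000209626 fell from 46.0, 48.5, 55.0 and 45.5 CPM to 8.02, 8.75, 15.2 and 11.0 (-2.18 ± 0.20, 0.00202). Both shifts were several times the spread of either group. In Rpl10a the coding transcript ENSMUST00000042334 fell (37.0 to 9.87 mean CPM, -1.91 ± 0.16, 0.00167) while the coding transcript ENSMUST00000233427 rose (2.25 to 15.4, 2.78 ± 0.26, 0.00204). Rpl18 had a coding transcript, ENSMUST00000211435, that was listed at 0 in vehicle and at 6.16, 5.80, 4.03 and 2.40 CPM in the treated libraries. Against the same floor of 3 counts per library it was at least 63.2-fold higher (adjusted p = 0.0034). Each of these 5 transcripts was also called with the offset.

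Rplp2 had 2 coding transcripts of unequal change. ENSMUST00000084434 went from 47.9, 30.7, 64.3 and 57.3 CPM to 10.2, 3.79, 9.21 and 3.88 (-2.89 ± 0.41, edgeR adjusted p = 0.00666), and ENSMUST00000106004 from a mean of 28.8 to 16.7 (-0.78 ± 0.17, 0.0294). The call of the latter ended without any library other than vehicle replicate 4. In Rpl27a and Rpl12 the called transcripts that are not protein coding were minor, under 10 CPM in every library. Rpsa, the laminin receptor and a small subunit protein, was not called as a gene (-0.16 ± 0.10, adjusted p = 0.253). With protein-coding transcripts alone it had -0.87 (0.0287), and its transcript annotated for decay, ENSMUST00000217356, stood at 185 to 206 CPM in vehicle and 204 to 253 in KU55933 (0.21, 0.186). Salmon divides reads among overlapping isoforms by likelihood, so these values are estimates of how reads were shared.

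**Figure D5:**
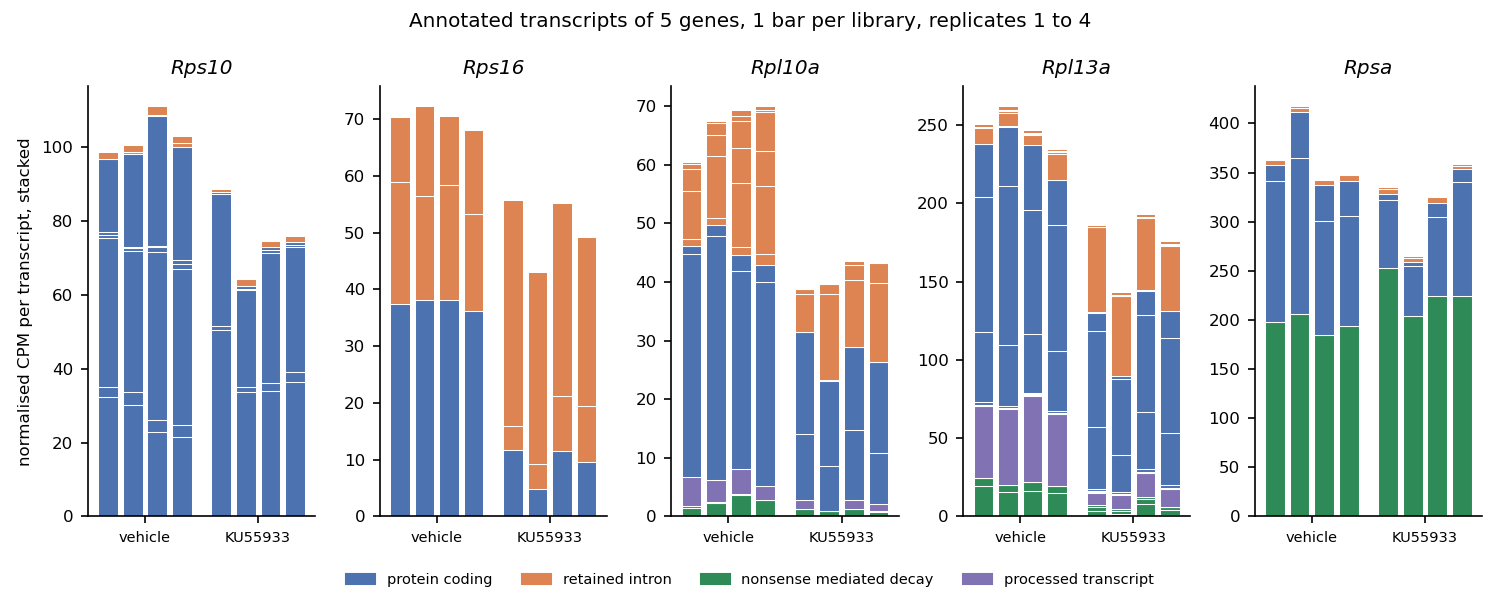
Normalised CPM per annotated transcript (y axis, from 0), stacked within 5 genes and coloured by biotype, 1 bar per library, vehicle and then KU55933, replicates 1 to 4. In Rps16 the blue coding part shrinks from 36.1 to 38.2 CPM to 4.82 to 11.7, in Rpl13a the orange intron-retaining part grows, and in Rps10 a coding segment of 19.8 to 35.1 CPM is absent from the KU55933 bars.

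Genes that work with the ribosomal proteins were counted from lists chosen with earlier results of these data known. All genes of these lists were tested. Among ribosomal proteins that the symbol rule does not catch, Fau, which encodes Rps30 fused to a ubiquitin-like protein, fell. Fau was at 104, 128, 121 and 114 CPM in vehicle and at 52.7, 44.7, 59.9 and 68.1 in KU55933 (-1.05 ± 0.12, edgeR adjusted p = 0.000573, and -0.46 with the offset, 0.0215). Its groups were far apart, and its transcripts held 59.6% GC. Rack1 (-0.25 ± 0.09, 0.0743) did not pass. Of 18 other TOP mRNAs 2 fell and 2 rose, where 14.6% and 6.92% of all genes did, with a median of 0.09 beside 0.01. Eef2, the elongation factor that acts at the stalk, fell from 1130 ± 75.8 to 745 ± 106 CPM (-0.60 ± 0.10, 0.00333), and Nap1l1, a histone chaperone, rose (0.30 ± 0.08, 0.0215). Eef1d also fell (-0.31 ± 0.08, 0.0247). The calls of Nap1l1 and Eef1d ended without vehicle replicate 2, 3 or 4 or KU55933 replicate 2. The other rise in this list had an edgeR adjusted p of 0.0499, and its call ended in 7 of the fits that left out 1 library. Of 7 proteins that bind TOP mRNAs 2 rose, Ssb (0.30 ± 0.08, 0.0193) and Larp4 (0.38 ± 0.11, 0.0358). Ssb lost its call without vehicle replicate 2, 3 or 4, and Larp4 without these or KU55933 replicate 1, 2 or 3.

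Of 8 chaperones that carry single ribosomal proteins 1 fell, Grwd1 (-0.42 ± 0.12, edgeR adjusted p = 0.0284), which lost the call without vehicle replicate 2, 3 or 4 or KU55933 replicate 2 or 3. Of 44 ribosome biogenesis genes 8 fell and 1 rose, where 14.6% and 6.92% of all genes did (median 0.02, beside 0.01 over all genes). Among them were Bop1 (-0.59 ± 0.10, 0.00291), Rrp9 (-0.84 ± 0.15, 0.00415) and Eif6 (-0.53 ± 0.11, 0.00714), which act in subunit assembly. With the offset, Fau was the only gene of these 5 lists that was called.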

How the data were processed

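RNA-seq of 4 KU55933 and 4 vehicle libraries of mouse hippocampus was used. The deposited values were estimated counts (expected counts) per transcript, made by the authors with Salmon 1.4.0 on genome build GRCm39, and FastQC 0.11.9 and DESeq2 1.32.0 are also named, per the submitters' processing notes. The kit was TruSeq Stranded mRNA, per the labels, which call every sample hippocampus but give input amounts for hypothalamus and PFC. The whole-number counts were summed per gene. Members, gene lists and tests were chosen with earlier results of these data known.

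Genes passing edgeR's filterByExpr were scaled by TMM and tested in R 4.3.3 with edgeR 4.0.16 (with limma 3.58.1), by its quasi-likelihood F test, two-sided, with dispersions estimated robustly and adjusted over all genes by Benjamini-Hochberg at 0.05. Log2 CPM used a prior count of 2. An alternative fit carried an offset per library, fitted as splines of 6 degrees of freedom in GC content and 5 in length, which were count-weighted means over transcripts of GENCODE mouse release 21 (99.7% of transcripts matched). That release and the RefSeq promoter table are of GRCm38, so no position was carried to GRCm39. Sequences were aligned with Biopython 1.88 and compared by windows of 31 bases. The fits were tested on simulated data. Floors of 3 counts cover counting error only.

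Values in every library were given, by rule, for the 8 largest called falls and rises, the stalk, paralog pairs, the 3 most abundant members per kilobase and up to 6 genes with a called transcript that is not protein coding, and from each pathway list for up to 3 called genes. One listed gene is not reported here. Same-numbered libraries deviated together with correlations of 0.40, 0.05, 0.09 and 0.27, so the numbers were not taken as pairs. No libraries were duplicates (chi-square per degree of freedom 14.61 or more). Alternatives were upper-quartile and RLE scaling, no filter, 1 CPM in 4 libraries, non-robust dispersion, replicate block, the offsets, DESeq2 1.42.0, limma-voom, a threshold of 0.1, protein-coding transcripts only, pseudogene counts added and libraries left out. The pseudogene, left-out and per-transcript fits with the offset were chosen after seeing the data. Tables and plots used Python 3.11.15, pandas 2.3.3, NumPy 2.4.6, SciPy 1.17.1 and matplotlib 3.10.9.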

Additional observations from a re-analysis of the deposited data

Results flagged for a closer look

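In 62 groups of 4 libraries, 1 for each group of 31 described members, 5 held a library whose gap to its nearest neighbour took more of the group's range than Dixon's critical value for 4 samples, where chance gives about 1 in 20. Rps21 was at 90.3 CPM in vehicle replicate 4, under the other controls. KU55933 replicate 1 was above the other treated libraries for Rpl36a (88.0 CPM), Rps25 (184 CPM), Rpl7 (280 CPM) and Rps4x (284 CPM). That library also carried the choroid plexus markers at 1920 CPM in sum, and replicate 2, at 1800, did not stand apart for these genes. The part of those markers in the levels was not tested.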

How the results depend on the processing

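The 30 lower members were 11 with a GC offset, 12 with GC and length, 14 with that offset and the replicate block and 17 without KU55933 replicates 1 and 2, and 18 to 32 when 1 library was left out. Other settings gave 26 to 31. The 7 higher members were 3 with no filter, 0 with either offset, 2 with the offset and replicate block, 13 by DESeq2, 4 by limma-voom, 16 at a threshold of 0.1, 11 from protein-coding transcripts, 2 without KU55933 replicates 1 and 2, and 1 to 6 when 1 library was left out. With the offset, the replicate block moved 0 higher members to 2. Over all genes, 2267 lower became 153 (GC offset), 202 (GC and length), 459 (with replicate block), 985 (without KU55933 replicates 1 and 2) and 1446 to 2558 (1 library left out). The 1071 higher genes became 692 with no filter, 1720 with the replicate block, 78, 107 and 362 with those offsets, 1811 by DESeq2, 2172 at 0.1, 105 without KU55933 replicates 1 and 2, and 151 to 1790 with 1 library left out. The 41 lower transcripts were 23 with the replicate block, 16 with the offset and 20 to 38 with 1 library left out. The causes were not tested.

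Same-numbered libraries share only a number. Replicates 1, 3 and 4 correlated best with their own number and replicate 2 with another, a hint from the data and not from the design. The replicate block alone gave 28 lower and 9 higher members. Log2 changes of members that were not called turned sign for Rpl22l1 (-0.02 with the GC and length offset, with or without replicate block), Rps27 (-0.03 with that offset and, leaving out 1 library, -0.01 to 0.22) and Rps27l (-0.09 with the GC offset, -0.14 with GC and length, with or without replicate block, and, leaving out 1 library, -0.03 to 0.15). No other member picked by the naming rule turned under the settings tried, and members named beyond that rule were not run under all of them.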
